A study of Homo sapiens with 36 samples.

Results

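Ribosome footprints were sequenced from WiT49 cells after 2 weeks of cyclic treatment with actinomycin D (actD) or with its vehicle, dimethyl sulfoxide (DMSO). These libraries are defined by their labels alone, and they make up 6 of the 36 libraries of the series, 3 per group. WiT49 is a cell line from an anaplastic Wilms tumor, a childhood kidney cancer. Both groups went through 2 cycles of 7 days. In each cycle the cells spent 3 days in 2 nM actD or in DMSO and then 4 days in plain medium. In addition, 2 sets of 6 footprint libraries, taken after 72 h and after 6 h of unbroken exposure to 2 nM actD or DMSO, are used below where the 2-week response is set against a shorter one. All groups are of 1 cell line, and nothing in the labels says whether replicates came from separate cultures, so p-values measure the spread between these libraries, which may be technical.

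A ribosome protects a short stretch of messenger RNA from nuclease while it translates, and the sequenced fragments, called footprints, count ribosomes per gene. ActD is an antibiotic that slips between the bases of GC-rich DNA. At low doses it mainly stops RNA polymerase I, which makes the large ribosomal RNAs, so the supply of new ribosomes is the process that such a dose is known for, and p53 is known to respond to that stress in cells where it is intact. Short structural RNAs, among them the U RNAs of the spliceosome, Y RNAs, 7SL RNA and microRNAs, can be carried along in footprint libraries because fragments of them have a similar size.

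Sequences of U2 and Y RNA genes and of miR-1246 are given here because they bear on which gene a short read is assigned to. The U2 pseudogenes RNU2-33P (GRCh38, chr14:96384624-96384815, plus strand) and RNU2-7P (chr13:20612161-20612338, plus strand) had the highest counts of all genes. Their sequences, from the GENCODE 29 transcripts, share a run of 27 bases, shown in capitals. RNU2-2P (chr11:62841619-62841809, minus strand) is another U2 gene, and its capitals mark the 14 bases that are its longest run in common with miR-1246.
RNU2-33P: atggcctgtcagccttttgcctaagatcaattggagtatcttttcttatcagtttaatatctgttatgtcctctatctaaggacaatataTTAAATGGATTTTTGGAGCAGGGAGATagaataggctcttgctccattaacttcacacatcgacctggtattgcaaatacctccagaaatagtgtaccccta
RNU2-7P: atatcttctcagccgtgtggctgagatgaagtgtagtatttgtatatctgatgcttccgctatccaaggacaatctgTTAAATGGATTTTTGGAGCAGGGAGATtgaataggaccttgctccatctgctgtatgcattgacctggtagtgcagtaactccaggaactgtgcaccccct
RNU2-2P: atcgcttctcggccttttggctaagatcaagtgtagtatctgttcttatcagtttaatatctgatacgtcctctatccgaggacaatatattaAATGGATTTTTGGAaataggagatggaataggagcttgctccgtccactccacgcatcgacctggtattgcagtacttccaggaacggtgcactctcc
The mature miR-1246 is shown as RefSeq gives it (GRCh38.p14), with its seed, bases 2 to 8, in capitals. All 19 of its bases lie within the run that both U2 pseudogenes share.
miR-1246: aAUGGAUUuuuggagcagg
The Y RNA gene RNY4 (chr7:148963315-148963410, plus strand) and its pseudogene RNY4P27 (chr13:95336106-95336201, minus strand) are shown with their longest common run, 40 bases, in capitals.
RNY4: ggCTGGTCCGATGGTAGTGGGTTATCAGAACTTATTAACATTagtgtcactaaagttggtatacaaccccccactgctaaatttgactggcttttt
RNY4P27: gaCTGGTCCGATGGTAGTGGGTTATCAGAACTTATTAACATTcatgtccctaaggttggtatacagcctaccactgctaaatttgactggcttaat
SNORA57 (chr11:62665422-62665570, plus strand) is a box H/ACA small nucleolar RNA, a class that guides the chemical modification of ribosomal RNA, and its ACA box is in capitals. It had only 3 to 15 counts per library and was chosen after its values were seen.
SNORA57: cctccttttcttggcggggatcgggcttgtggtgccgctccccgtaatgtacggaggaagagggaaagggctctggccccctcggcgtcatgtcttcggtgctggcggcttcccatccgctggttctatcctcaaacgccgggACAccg

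The libraries held 581392 to 1093427 estimated counts, of which protein-coding genes took 6.24% to 9.39%. In each library 6344 to 8727 protein-coding genes had at least 1 count. Genes that repeat the near-equal counts of another gene held 41.2% to 47.9% of a library's counts. Totals and shares may therefore count the same reads more than once. A count of 0 allows up to 3 counts, which is 2.70 to 4.65 on the CPM scale used here (library-scaled counts, with TMM factors), for counting error only. IGF2 (37 to 103 counts) and WT1 (2 to 5 counts), markers of nephron progenitors and Wilms tumor blastema, were present, whereas SIX2, SALL1, EYA1, OSR1 and PAX8 had no count in any of the 6 libraries. Of 7 stromal markers COL3A1 and COL1A1 carried nearly all counts, COL1A2 was at 0 in all 6 libraries, and DCN, PDGFRA and PDGFRB had 0 to 2. Of 7 epithelial markers the keratins KRT8 and KRT18 carried nearly all counts, LHX1 was at 0 in all 6 libraries, and JAG1 and CDH1 had 0 to 2. The 6 defining markers of endothelium and blood were at 0, and in the wider list of 10 such genes 1 gene, KDR, had 0 to 2 counts per library. The summed blastemal markers were 59 to 94 counts with actD and 48 to 131 with DMSO. Stromal markers summed to 1636 to 2180 counts with actD and 667 to 2449 with DMSO, and epithelial markers to 245 to 367 and 143 to 345.

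Library 1 of actD went against its label in how much it resembled the others, and library 3 of DMSO resembled both groups to a like degree. Over 1319 tested protein-coding genes, the CPM of actD library 1 had a Spearman correlation of 0.80 with DMSO library 2 and 0.74 with DMSO library 1, but only 0.64 and 0.58 with actD libraries 2 and 3. DMSO library 3 had its highest correlation within its own group, 0.64 with DMSO library 2, and its lowest there too, 0.50 with DMSO library 1, while its values with actD libraries 1 to 3 were 0.62, 0.60 and 0.62. The remaining pairs of 1 group reached 0.78 (actD 2 and 3) and 0.76 (DMSO 1 and 2). The number of genes at an unadjusted p under 0.05 is given below without each library.

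No gene passed the test after adjustment for multiple testing. Of 1598 genes that passed the filter on low counts (0.0% called at an adjusted p under 0.05, edgeR quasi-likelihood test with Benjamini-Hochberg adjustment), the smallest adjusted p was 0.527, and DESeq2 also called 0. At an unadjusted p under 0.05 stood 137 genes (8.57%), 65 higher with actD (4.07%) and 72 lower (4.51%), and DESeq2 gave 71. The split between higher and lower depended on the scaling: it was 30 to 66 with library totals, which moved the median log2 fold change of all genes from 0.02 to -0.14, and 51 to 89 with TMM factors from protein-coding genes. Without actD 1 the count at an unadjusted p under 0.05 was 292 of 1979 genes, and without DMSO 3 it was 238 of 2073. It was 53 of 1687 without actD 2, 73 of 1686 without actD 3, 134 of 2018 without DMSO 1 and 72 of 1658 without DMSO 2. In 238 genes (14.9%) the 3 actD levels and the 3 DMSO levels did not overlap, 133 with actD higher (8.32%) and 105 with actD lower (6.57%), and among protein-coding genes in 200 of 1330 (15.0%). The genes described next were therefore named by a rule on the size of their unadjusted p, and none of them is a called change. The tested protein-coding genes had a median of 16.2 counts per library, and the median standard error (SE) of their log2 fold change was 0.36.

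The genes named on the lower side are described first. CKAP5, which builds microtubules of the mitotic spindle, had 25, 12 and 12 counts with actD and 57, 94 and 37 with DMSO. All 3 actD libraries were below all 3 DMSO libraries, at 19.9 ± 7.68 CPM against 76.2 ± 17.8 CPM (SD, n = 3 each), a log2 fold change of -1.93 (SE 0.39, unadjusted p = 0.00135, edgeR adjusted p = 0.527). ZC3H13, a part of the complex that places N6-methyladenosine on messenger RNA, had 17, 11 and 5 counts with actD and 30, 59 and 29 with DMSO. Its log2 fold change was -1.84 (SE 0.39, unadjusted p = 0.00156, edgeR). CHD4, the motor subunit of the NuRD chromatin remodeler, had 59, 29 and 28 counts with actD and 112, 159 and 78 with DMSO. Its levels were 47.0 ± 17.9 CPM and 145 ± 27.9 CPM (SD, n = 3 each), with a log2 fold change of -1.62 (SE 0.40, unadjusted p = 0.00416, edgeR). In these 3 genes actD library 1 was the highest of the actD libraries in CPM and so the nearest to DMSO. Without actD 1 the fold changes were -2.29, -2.24 and -1.97, and without DMSO 3 they were -2.14, -1.93 and -1.77.

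The other 7 genes on this side had log2 fold changes of -0.99 to -1.45. They were PBRM1, a subunit of the PBAF chromatin remodeler, the histone methyltransferase gene ASH1L, the zinc finger gene ZNF638, PRRC2C, the paraspeckle and splicing protein gene SFPQ, and the poly(A)-binding protein genes PABPC1 and PABPC3. SFPQ had 37, 12 and 10 counts with actD and 47, 72 and 38 with DMSO. PBRM1 had 19, 14 and 11 counts with actD and 29, 42 and 22 with DMSO. PABPC1 had 51, 32 and 21 counts with actD and 51, 96 and 64 with DMSO. PABPC3 is a near copy of PABPC1, so short reads may have been split between them.

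On the higher side the smallest unadjusted p among the named protein-coding genes belonged to OS9. This gene, for a lectin that hands misfolded glycoproteins to degradation, had 26, 53 and 36 counts with actD and 12, 24 and 11 with DMSO. Its levels were 47.5 ± 16.0 CPM and 18.9 ± 2.52 CPM (SD, n = 3 each), a log2 fold change of 1.31 (SE 0.36, unadjusted p = 0.00748, edgeR adjusted p = 0.527). HSPA13, an Hsp70-like protein of microsomes, had 25, 46 and 37 counts with actD and 9, 28 and 12 with DMSO (log2 fold change 1.20, SE 0.39). SERPINH1, the collagen chaperone HSP47, had 34, 51 and 44 counts with actD and 13, 36 and 19 with DMSO (log2 fold change 0.97, SE 0.34). CALU, a calcium-binding protein of the endoplasmic reticulum, had 34, 35 and 25 counts with actD and 16, 25 and 12 with DMSO (log2 fold change 0.81, SE 0.28). All of these were higher in CPM in each actD library than in each DMSO library, and actD library 2 or 3 held the highest level in OS9, HSPA13, SERPINH1 and CALU.

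The remaining genes on the higher side had log2 fold changes of 0.88 to 1.28. APOE, the lipid carrier apolipoprotein E, had 23, 33 and 26 counts with actD and 12, 19 and 13 with DMSO. NDUFB11, a subunit of respiratory complex I, had 26, 36 and 20 counts against 15, 16 and 10. SLC38A2, an amino acid transporter, had 48, 73 and 79 counts against 21, 48 and 31. CHMP1B, an ESCRT-III protein of membrane scission, had 28, 90 and 38 counts against 20, 27 and 15, and its highest library was actD 2. C11orf58 had 22, 33 and 32 counts against 13, 23 and 11. MTRNR2L12 is annotated as protein-coding but is a nuclear copy of the mitochondrial 16S ribosomal RNA gene, and its 5696, 7726 and 8465 counts with actD and 2448, 3591 and 3829 with DMSO cannot be told apart from reads of MT-RNR2.

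**Figure D1:**
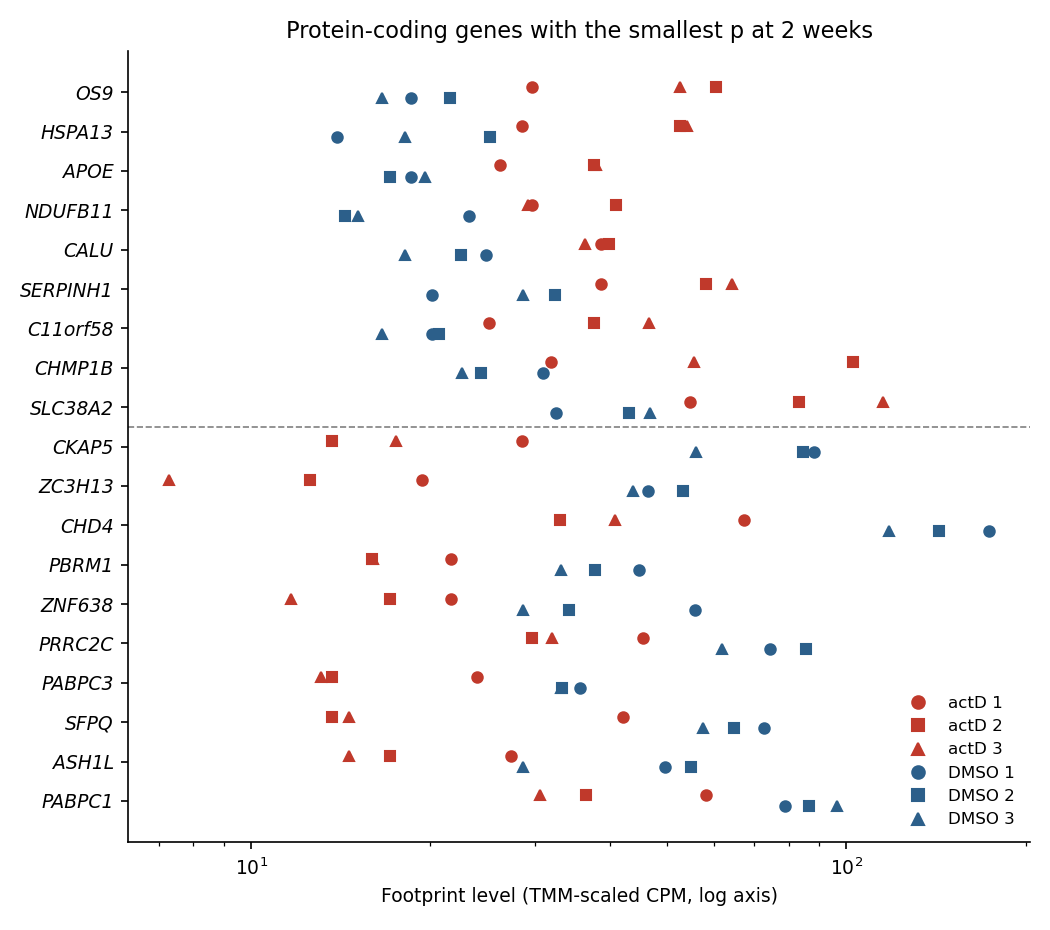
Footprint levels (horizontal log axis, CPM scaled by TMM) of the protein-coding genes with the smallest unadjusted p and groups that do not overlap, MTRNR2L12 left out for scale. Each point is 1 library, red for actD and blue for DMSO, with the marker shape giving the library number, and the genes above the dashed line were higher with actD. In CKAP5, ZC3H13 and CHD4 the circle of actD library 1 lies to the right of the other 2 actD libraries.

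Gene lists by function were described by how many tested members lay above 0 and by their median log2 fold change, beside 51.3% and 0.02 for all tested genes. Genes of protein folding and translocation in the endoplasmic reticulum had 9 of 10 tested members above 0 and a median of 0.63. Of the 10, 4 had groups that did not overlap with actD higher, against 8.32% of all genes. HSPA5, the chaperone BiP, had 220, 327 and 276 counts with actD and 154, 263 and 108 with DMSO, a log2 fold change of 0.68 (SE 0.37, edgeR adjusted p = 0.587). CALR, calreticulin, had 123, 212 and 157 counts with actD and 75, 147 and 74 with DMSO (log2 fold change 0.76, SE 0.36). HSP90B1, the chaperone GRP94, had 223, 313 and 288 counts with actD and 188, 354 and 132 with DMSO, so its groups overlapped in CPM. The 2 members with an unadjusted p under 0.05, HYOU1 (15, 17 and 21 counts with actD and 7, 11 and 6 with DMSO) and SSR4 (16, 26 and 18 against 9, 17 and 12), are named after their values were seen. Of all tested genes, 4.07% were higher at that p. The list's median was 0.43 without actD 2 and 0.82 without actD 1, the lowest and the highest over leaving out each library. It was 0.18 with a looser filter on low counts.

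Subunits of the nuclear-encoded respiratory chain had 13 of 15 tested members above 0 and a median of 0.53, which was 0.72 without actD 1, 0.52 without DMSO 3 and 0.30 without DMSO 1. COX4I1 of complex IV had 25, 43 and 43 counts with actD and 8, 26 and 40 with DMSO (log2 fold change 0.55, SE 0.58). ATP5F1A of the ATP synthase had 87, 71 and 81 counts with actD and 39, 100 and 68 with DMSO (log2 fold change 0.23, SE 0.36). ATP5F1B had 302, 93 and 206 against 214, 256 and 146 (log2 fold change -0.06, SE 0.49). Among the genes encoded in mitochondrial DNA, 4 of 4 tested members were above 0, with a median of 0.38.

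The proteasome, the protease that clears ubiquitin-marked proteins, is named in the title of the series. Of its subunits 15 of 33 were tested, 13 were above 0, and the median was 0.36. None had an unadjusted p under 0.05. PSMB5, the chymotrypsin-like catalytic subunit, had 22, 45 and 37 counts with actD and 9, 25 and 34 with DMSO, a log2 fold change of 0.57 (SE 0.53, edgeR adjusted p = 0.727). PSMB4 had 33, 58 and 46 counts with actD and 13, 30 and 46 with DMSO (log2 fold change 0.56, SE 0.51). PSMC5, an ATPase of the regulatory cap, had 30, 57 and 40 counts with actD and 20, 40 and 34 with DMSO (log2 fold change 0.41, SE 0.37). DMSO library 3 lay within the range of the actD libraries or above it in PSMB4 and PSMB5. PSMB1, named after its values were seen, had 0, 49 and 50 counts with actD and 0, 32 and 0 with DMSO, and an exact 0 beside such counts can be a failed estimate. The median of the list was 0.15 without actD 2, 0.25 without DMSO 1, 0.62 without actD 1 and 0.50 without DMSO 3.

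Of the ribosomal proteins, 21 of 48 in the large subunit and 16 of 33 in the small one were tested. In the large subunit 13 of 21 were above 0, with a median of 0.04. RPL3 had 64, 70 and 45 counts with actD and 112, 65 and 70 with DMSO (log2 fold change -0.62, SE 0.45), and RPL4 had 60, 60 and 38 against 53, 60 and 52 (log2 fold change -0.15, SE 0.33). RPLP2, of the ribosomal stalk, had 22, 71 and 59 against 86, 59 and 26 (log2 fold change -0.23, SE 0.62). The median ranged from -0.27 (without DMSO 2) to 0.27 (without actD 1). In the small subunit 12 of 16 were above 0, with a median of 0.35, which was 0.03 without actD 2, 0.10 without actD 3, 0.22 without DMSO 2, 0.53 without actD 1 and 0.61 without DMSO 3. RACK1 had 139, 177 and 141 counts with actD and 48, 101 and 111 with DMSO (log2 fold change 0.77, SE 0.41). RPS25 had 56, 62 and 26 against 103, 71 and 37 (log2 fold change -0.69, SE 0.50), and RPS13 had 8, 89 and 117 against 13, 8 and 47 (log2 fold change 1.53, SE 1.06). In RPS13 the libraries actD 1, DMSO 1 and DMSO 2 were low and actD 2, actD 3 and DMSO 3 were high, a division that crosses the groups.

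Translation factors had 9 of 21 tested members above 0 and a median of -0.07, which ranged from -0.14 without actD 3 to 0.0343 without DMSO 3. The 4 with an unadjusted p under 0.05 were all lower with actD, against 4.51% of all genes: EIF4G1, the scaffold of the cap-binding complex (41, 17 and 12 counts with actD and 57, 74 and 30 with DMSO), EIF5B, which joins the subunits (13, 3 and 3 against 7, 30 and 16), PABPC1 and PABPC4 (14, 8 and 7 against 20, 27 and 15). EIF4G1, EIF5B and PABPC4 are named after their values were seen, and the groups of EIF4G1 and EIF5B overlapped in CPM. Of the 21 members, 3 had groups that did not overlap with actD higher and 3 with actD lower. The shares of all tested genes were 8.32% and 6.57%. EEF2, the translocase of elongation, had 244, 230 and 134 counts with actD and 286, 328 and 191 with DMSO (log2 fold change -0.48, SE 0.36). EIF3A had 152, 95 and 88 against 106, 130 and 73 (log2 fold change 0.07, SE 0.37), and EIF4G2 had 102, 108 and 106 against 74, 121 and 76 (log2 fold change 0.22, SE 0.32). The groups of EIF4G2 did not overlap in CPM, with actD higher.

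Ribosome biogenesis factors, the proteins that assemble ribosomes in the nucleolus, had 6 of 13 tested members above 0 and a median of -0.03, which ranged from -0.17 without actD 1 to 0.10 without DMSO 1. NCL, nucleolin, had 464, 164 and 195 counts with actD and 395, 478 and 321 with DMSO, a log2 fold change of -0.61 (SE 0.46). WDR43 had 32, 39 and 35 counts with actD and 19, 33 and 25 with DMSO (log2 fold change 0.44, SE 0.30). NPM1, nucleophosmin, had 38, 4 and 50 against 3, 38 and 50, with 1 low library in each group. Of 26 p53 target genes 1 was tested, the cyclin G gene CCNG1, with 14, 16 and 6 counts against 6, 19 and 2.

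Splicing factors and hnRNPs had 11 of 34 tested members above 0 and a median of -0.30. DDX5, an RNA helicase, had 226, 160 and 133 counts with actD and 181, 454 and 239 with DMSO, with no overlap in CPM (log2 fold change -0.73, SE 0.35, edgeR adjusted p = 0.562). HNRNPU had 145, 64 and 53 counts against 115, 176 and 134 (log2 fold change -0.77, SE 0.43), and SRRM2 had 129, 69 and 50 against 142, 181 and 82 (log2 fold change -0.76, SE 0.43). The 2 members with an unadjusted p under 0.05, named after their values were seen, were SF3B3 (61, 26 and 23 counts against 53, 101 and 64) and SNRNP200 (13, 9 and 10 against 13, 31 and 20), both of the spliceosome. These 2 of 34 members stand beside 4.51% of all tested genes that were lower at that p. The median lay between -0.41 and -0.30 without any 1 library.

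Chromatin and HMG proteins had 5 of 20 tested members above 0 and a median of -0.28. CHD4 is described above. SMARCA4, the motor of the BAF remodeler, had 69, 51 and 36 counts with actD and 70, 69 and 40 with DMSO (log2 fold change -0.28, SE 0.38), and CHD3 had 45, 27 and 16 against 43, 77 and 21 (log2 fold change -0.67, SE 0.44). KMT2A, the other member with an unadjusted p under 0.05 and named for it, had 12, 5 and 5 counts against 22, 32 and 7. CHD4 and KMT2A were 2 of 20 members, beside 4.51% of all tested genes that were lower at that p. Genes of DNA replication and mitosis had 2 of 9 tested members above 0 and a median of -0.43. MCM7, of the replicative helicase, had 76, 51 and 35 counts against 77, 90 and 64 (log2 fold change -0.60, SE 0.36), TOP2A had 76, 33 and 35 against 53, 110 and 67 (log2 fold change -0.69, SE 0.40), and CENPF had 54, 52 and 39 against 36, 69 and 43 (log2 fold change -0.04, SE 0.29). MKI67, the proliferation marker Ki-67 and also named after its values were seen, had 15, 8 and 8 counts with actD and 30, 33 and 18 with DMSO, a log2 fold change of -1.42 (SE 0.35, unadjusted p = 0.00385, edgeR). Over leaving out each library the median of the chromatin list lay between -0.42 (without actD 1) and -0.19 (without DMSO 1 or actD 3), and that of replication and mitosis between -0.94 (without actD 1) and -0.40 (without actD 2).

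The remaining protein-coding lists had medians nearer to that of all genes or few tested members. The medians were 0.21 over 12 genes of cholesterol and fatty acid synthesis (0.0273 without DMSO 3 and 0.39 without DMSO 1), 0.04 over 10 aminoacyl-tRNA synthetases, 0.03 over 9 glycolytic enzymes and 0.02 over 20 chaperones, while of 28 genes of the cytoskeleton and adhesion 14 were above 0. Of 16 collagens and extracellular matrix genes 8 were above 0, with COL3A1 at 1977, 1840 and 1556 counts with actD and 1492, 2312 and 619 with DMSO. COL1A1 had 198, 94 and 73 counts against 113, 132 and 42, and LAMB1 had 87, 89 and 28 against 72, 123 and 48. SC5D, which acts late in cholesterol synthesis, had 42, 40 and 51 counts against 19, 36 and 20 with no overlap in CPM (log2 fold change 0.86, SE 0.32). Ubiquitin genes and activating enzymes (7 tested) had a median of 0.04, genes of the ATF4 and serine pathway (4 tested) 0.27, and snoRNA host genes (3 tested) 0.24. Blastemal markers (3 tested), stromal markers (2 tested) and epithelial markers (2 tested) had medians of -0.01, 0.31 and 0.36.

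**Figure D2:**
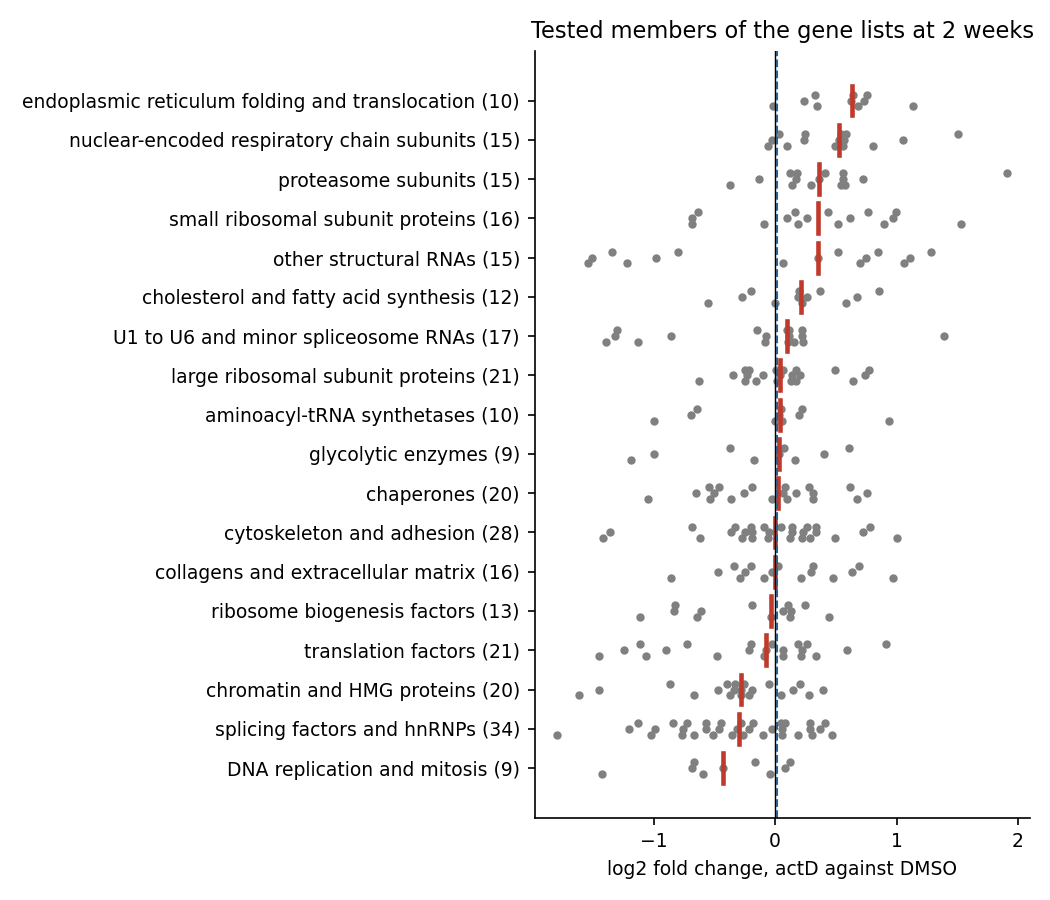
Log2 fold changes (horizontal axis, actD against DMSO) of the tested members of each gene list with at least 9 of them, their number in brackets. Grey points are genes, red bars are list medians, and the dashed blue line is the median of all tested genes, 0.02. The endoplasmic reticulum list has its median at 0.63 and the replication and mitosis list at -0.43, while single genes of most lists lie on both sides of 0.

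Coding length moved with these fold changes. This was looked at after the values of the named genes were seen. The 10 genes named on the higher side had a median coding length of 960 bases (72 to 2001) and the 10 on the lower side 5444 bases (1893 to 8907). Over 1319 tested protein-coding genes with a known coding length, the Spearman correlation of log2 fold change and coding length was -0.49, and it lay between -0.35 and -0.56 when any 1 library was left out and the filter applied anew. This is across genes of the same 6 libraries, which are not independent replicates. The 442 genes with the shortest coding sequences (up to 1254 bases) had a median log2 fold change of 0.30, the 437 genes of the middle range (up to 2619 bases) 0.02 and the 440 longest -0.26. Groups did not overlap with actD higher in 60 of the 442 shortest genes and with actD lower in 2. In the 440 longest genes these counts were 14 higher and 66 lower. Over all 1598 tested genes, 8.32% did not overlap with actD higher and 6.57% with actD lower.

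In the shortest and longest sets the libraries did not divide by group. Shares were taken over all protein-coding genes with a known coding length, tested or not, cut at the same lengths. Genes encoded in mitochondrial DNA and MTRNR2L copies were left out. The longest genes took 32.1%, 25.4% and 24.9% of these counts in actD libraries 1 to 3. In DMSO libraries 1 to 3 they took 36.0%, 33.4% and 25.3%. The groups overlapped, with actD 1 among the DMSO values and DMSO 3 among the actD values (27.5% ± 4.00 against 31.6% ± 5.57, SD, n = 3 each, exact permutation p = 0.3, two-sided, where 0.1 is the smallest that 3 against 3 allows). The difference in this share, -4.10 percentage points, was -7.22 without DMSO 3, -6.40 without actD 1 and -1.88 without DMSO 1. The shortest genes took 35.9% ± 4.40 with actD and 30.1% ± 4.35 with DMSO (exact permutation p = 0.2, two-sided). The middle set took 36.2% to 37.1% with actD and 37.5% to 39.7% with DMSO, with no overlap (exact permutation p = 0.1, two-sided). The lists above differ in length too: the median coding length of tested members was 465 bases for the small ribosomal subunit, 792 for the respiratory chain, 972 for the proteasome, 1467 for splicing factors, 1673 for the endoplasmic reticulum list, 2390 for chromatin proteins and 2712 for replication and mitosis. Its part in the differences between lists and named genes was not tested.

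Structural RNAs held most of the counts of every library. Small nuclear RNAs took 46.4%, 55.6% and 62.0% of the counts in actD libraries 1 to 3 and 46.8%, 64.8% and 46.3% in DMSO libraries 1 to 3, so the groups overlapped. Genes annotated as long noncoding RNA took 22.6% ± 7.60 with actD and 25.2% ± 8.86 with DMSO (SD, n = 3 each). FP671120.3 (chr21:8210384-8211306) had the highest count among them, with 3 further genes at near-equal counts. This share may therefore count the same reads more than once, and the RNA that gave them was not determined. Of 12 classes, 2 had shares that did not overlap between groups. Y, 7SK, 7SL and similar RNAs took 0.536%, 0.511% and 0.599% with actD and 0.430%, 0.241% and 0.322% with DMSO, 0.549% ± 0.0450 against 0.331% ± 0.0950 (SD, n = 3 each). The exact two-sided permutation p was 0.1, the smallest that this design allows, and 0.6 after adjustment over the 12 classes. Mitochondrial ribosomal RNAs took 5.10% to 6.24% with actD and 3.07% to 4.00% with DMSO, with the same exact permutation p of 0.1, 0.6 adjusted. Both RNAs of the mitochondrial ribosome had positive log2 fold changes, 0.75 (SE 0.33) for MT-RNR1 and 1.06 (SE 0.63) for MT-RNR2, the latter with groups that overlapped.

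**Figure D3:**
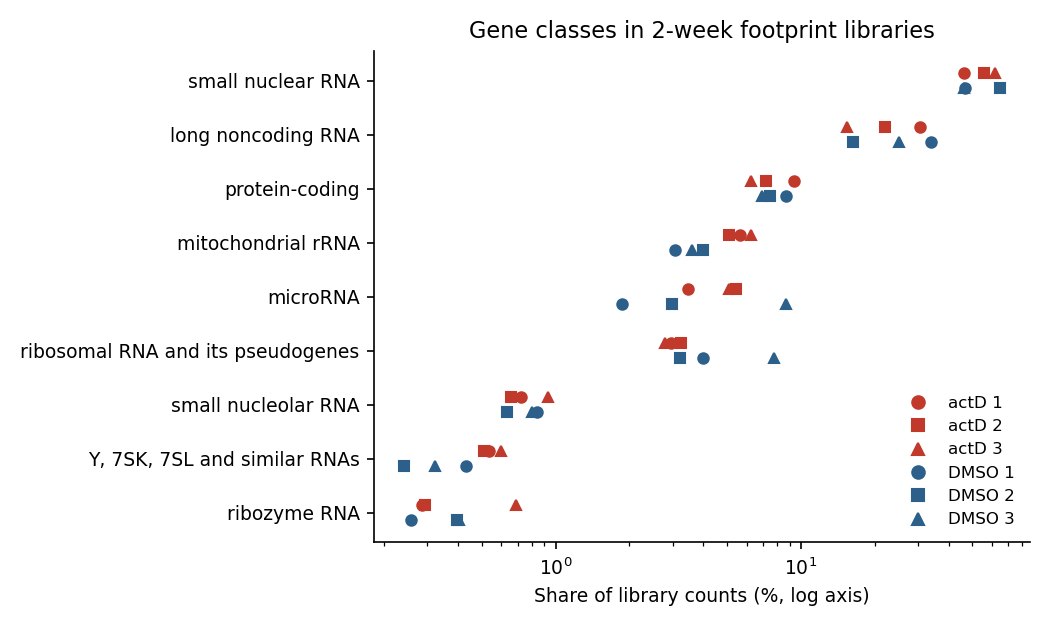
Share of each library's counts (horizontal axis, percent, log scale) by gene class, for the classes that reached 0.1% in any library. Each point is 1 library, red for actD and blue for DMSO, with the marker shape giving the library number. The red points lie to the right of all blue ones for mitochondrial rRNA and for Y and 7SL RNAs. DMSO library 3 has the highest microRNA share, 8.65%, and MIR6087 alone held most counts of that class in every library.

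The U2 genes show how far the assignment of short reads limits single structural RNAs. RNU2-33P had 109474, 186011 and 212751 counts with actD and 97836, 190011 and 85291 with DMSO, and RNU2-7P had 109383, 185924 and 212705 against 97719, 189834 and 85210. The counts of both genes differ by less than 5% in every library, so they cannot be told apart. RNU2-2P followed another order, with 17216, 30578 and 15349 counts against 13796, 84417 and 46862 (log2 fold change -1.13, SE 0.51). MIR1246 had 2100, 3464 and 3517 counts with actD and 924, 1607 and 773 with DMSO, 3823 ± 1371 CPM against 1348 ± 157 CPM (SD, n = 3 each). All actD libraries were above all DMSO libraries, with a log2 fold change of 1.50 (SE 0.38, unadjusted p = 0.00428, edgeR adjusted p = 0.527). A read of its 19 bases would match the U2 pseudogenes as well, so the gene that gave these reads is uncertain. In 728 genes with a mean of at least 20 counts, 60 genes formed 22 groups of near-equal counts, and genes beyond the first of each group held 41.2% to 47.9% of a library's counts.

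A related pattern appeared where genes overlap. RNU12, the U12 RNA of the minor spliceosome (chr22:42615244-42615393), had 53649 counts in DMSO library 2 and 0 in the other 5 libraries. Z93241.1, a long noncoding RNA gene with the same start, had 2 counts in that library and 34336, 36585 and 29210 counts with actD and 17388 and 33057 in DMSO libraries 1 and 3. Their sum was 2.99% to 4.91% of every library. In all, 24 genes had at least 100 counts in 1 library and no more than 3 in another, and 15 of them overlap another gene with at least 50 counts. MATR3, LDHB and CCT7 were among the 24, and an exact 0 there can be a failed estimate.

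Y RNAs, which bind the Ro60 protein, and 7SL RNAs, the RNA of the signal recognition particle, were tested in a class of 19 genes with 7SK and similar RNAs. All 19 were higher with actD, with a median log2 fold change of 0.85, and in 12 the groups did not overlap, against 8.32% of all tested genes in that direction. They are not 19 independent measurements, since many are copies of the same RNA and 4 of them have near-equal counts. RNY4P27 had 213, 320 and 418 counts with actD and 104, 105 and 98 with DMSO, with no overlap (log2 fold change 1.59, SE 0.46, unadjusted p = 0.00908, edgeR adjusted p = 0.527). RNY4 had 415, 623 and 776 counts with actD and 264, 245 and 213 with DMSO (log2 fold change 1.28, SE 0.45), and its pseudogenes RNY4P7 and RNY4P20 had near-equal counts, both with a log2 fold change of 1.31. RN7SL1 had 115, 183 and 157 counts against 52, 68 and 81 (log2 fold change 1.11, SE 0.42), and RNY1 had 617, 504 and 438 against 455, 451 and 260 with groups that overlapped (log2 fold change 0.35, SE 0.37). RNY4P27, RNY4 and RN7SL1 were chosen after their values were seen. Of the list of other structural RNAs, 9 of 15 tested members were above 0, with a median of 0.35, which was 0.57 without actD 1 and -0.16 without actD 3.

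Ribosomal RNA genes and pseudogenes, among them 5S and RNA5-8SN2 genes, lay on the other side. Of 23 tested genes, 22 were lower with actD, and the median log2 fold change was -0.73. They are not 23 independent measurements, since 6 of them fall in groups of near-equal counts. In 1 of them the groups did not overlap, with actD lower, against 6.57% of all tested genes in that direction. RNA5SP357 had 4323, 5665 and 6066 counts with actD and 4681, 6913 and 13358 with DMSO, and DMSO library 3 was the highest. The share of the class was 3.01% ± 0.234 with actD and 4.99% ± 2.45 with DMSO (SD, n = 3 each, exact permutation p = 0.2, two-sided). That difference rested on DMSO library 3: it was -1.99 percentage points with all libraries and -0.59 without it, and the log2 fold change of RNA5SP357 was -0.73 (SE 0.52) with all libraries and -0.0379 without DMSO 3.

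Small nuclear and small nucleolar RNAs had members on both sides. Of 17 tested U RNAs of the spliceosome 9 were above 0, with a median of 0.10 that ranged from -0.0416 to 0.17 without any 1 library, and RNU1-2 had 4403, 4375 and 3151 counts against 2327, 4559 and 3168 (log2 fold change 0.23, SE 0.29). The U4 genes RNU4-1 (5, 6 and 3 counts with actD and 8, 17 and 12 with DMSO) and RNU4-2 (13, 11 and 5 against 14, 45 and 15) had log2 fold changes of -1.40 (SE 0.38) and -1.30 (SE 0.37), with no overlap in CPM. Of 42 tested small nucleolar RNA genes 21 were above 0, with a median of 0.00038. SNORA57 had 5, 4 and 3 counts with actD and 15, 14 and 15 with DMSO, 4.88 ± 0.716 CPM against 19.5 ± 5.97 CPM (SD, n = 3 each), a log2 fold change of -1.91 (SE 0.41, unadjusted p = 0.00191, edgeR adjusted p = 0.527). SNORA51 had 10, 7 and 3 counts against 13, 27 and 15 (log2 fold change -1.45, SE 0.34). SNORA3A had 37, 36 and 64 against 15, 25 and 9 (log2 fold change 1.55, SE 0.44). The U4 genes and these 3 small nucleolar RNAs were chosen after their values were seen, and SNORA57, SNORA51 and RNU4-1 reach down to 3 counts. The small nucleolar RNA genes with the highest counts were SNORA61 (1878, 3105 and 4094 counts with actD and 2252, 1788 and 2352 with DMSO), SCARNA1 (246, 442 and 578 against 71, 226 and 675) and SNORA9 (561, 223 and 79 against 397, 423 and 179), all with overlapping groups. The ribozyme RNAs RPPH1 and RMRP had log2 fold changes of 0.52 (SE 0.56) and 0.06 (SE 0.39).

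MicroRNAs are short RNAs that guide Argonaute proteins to messenger RNAs by the seed. The table counts hairpin genes, not the arms, and of 44 tested genes 41 had a mature sequence in RefSeq. The microRNAs below are shown with the seed in capitals because together with MIR1246 they carry the largest counts with a mature sequence at hand.
miR-148a-3p: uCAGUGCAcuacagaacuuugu
let-7a-5p: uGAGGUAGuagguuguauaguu
MIR148A had 434, 1351 and 2997 counts with actD and 258, 1236 and 6972 with DMSO (log2 fold change -0.91, SE 1.20), and MIR6087 had 21641, 46053 and 33816 against 8971, 27443 and 41586 (log2 fold change 0.32, SE 0.58). The genes MIRLET7A1, MIRLET7A2 and MIRLET7A3 give the same 5p sequence, and MIRLET7A2 had 108, 325 and 806 counts with actD and 50, 209 and 910 with DMSO. The seed of let-7a was shared by 9 tested genes. Apart from MIR6087 and MIR1246, 38 of the 42 tested genes had their highest CPM in DMSO library 3 and 35 had their lowest in DMSO library 1. Their summed level was 1700, 4462 and 13542 CPM in actD libraries 1 to 3 and 1175, 2707 and 27171 CPM in DMSO libraries 1 to 3. No group of libraries stood apart in this sum: libraries 3 were high and libraries 1 low in both groups, and in 0 of the 42 genes did the groups not overlap.

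Against 72 h of unbroken treatment, measured in its own 6 libraries, the 2-week fold changes of most called genes pointed the same way and were smaller. At 72 h, 92 of 2426 genes were called (3.79%, edgeR), 39 higher and 53 lower with actD. Of the 53 lower genes 45 were tested at 2 weeks, 43 of them lay below 0 there, and 15 had an unadjusted p under 0.05. The median log2 fold change of these 45 genes was -0.74 at 2 weeks and -2.01 at 72 h. Of the 39 higher genes 9 were tested at 2 weeks, 8 lay above 0, and their medians were 0.29 at 2 weeks and 2.42 at 72 h. Since genes were chosen by their call at 72 h, a smaller median at 2 weeks is a description and was not tested. CKAP5, CHD4 and SFPQ were called lower at 72 h, with log2 fold changes of -3.04 (SE 0.61), -2.84 (SE 0.53) and -2.32 (SE 0.49), each at an adjusted p of 0.0473 (edgeR). Over the 1354 genes tested at both times the log2 fold changes had a Spearman correlation of 0.55 and a Pearson correlation of 0.49, across genes. With 6 h the correlations over 913 genes were 0.15 and 0.05. The 6 h libraries detected 2918 to 7748 protein-coding genes. Their fitted coefficient of variation between libraries was 0.80, against 0.43 at 2 weeks and 0.44 at 72 h. Among the 72 h libraries, DMSO 3 held the fewest protein-coding counts, 26831. The part of library quality in these correlations was not tested. Coding length moved with the fold changes at 72 h as well, with a Spearman correlation of -0.58 over 2215 genes, and its part in the likeness of both times was not tested.

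**Figure D4:**
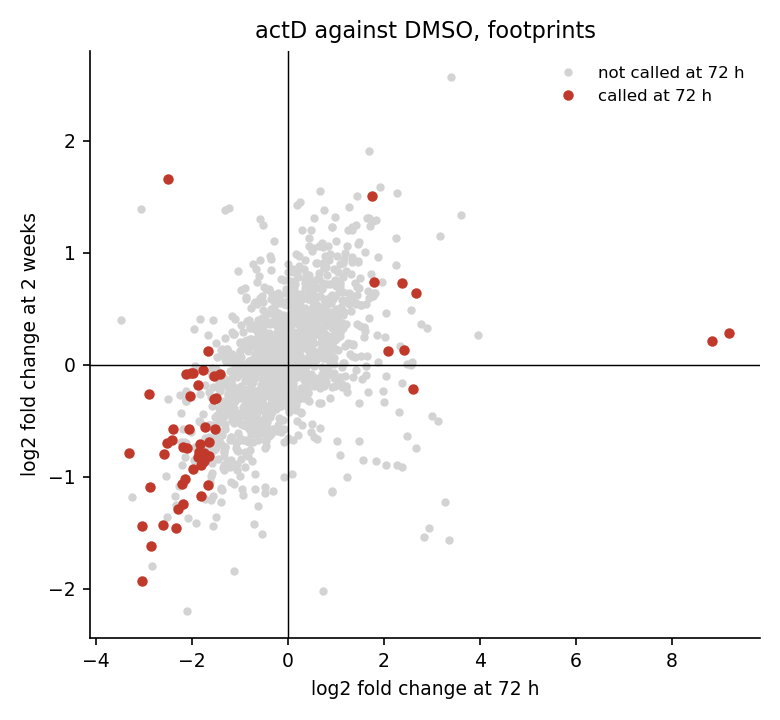
Log2 fold change of actD against DMSO at 2 weeks (vertical axis) against that at 72 h (horizontal axis) for the 1354 genes tested at both times. Red points were called at 72 h, and 43 of the 45 lower ones lie below 0 at 2 weeks, at smaller size.

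The test of the difference between times found little. In the fit over the 12 libraries of both times, 2 of 3760 genes (0.0532%) differed in their response to actD at an adjusted p under 0.05 (edgeR), MOB1A and ITM2C, both with a lower fold change at 2 weeks. Both genes had 0 counts in all 3 DMSO libraries of 72 h, and an exact 0 there can be a failed estimate. At an unadjusted p under 0.05 stood 282 genes (7.5%). DESeq2 called 11. Both calls were lost when any actD library of 2 weeks was left out. Against 6 h, 0 of 2209 genes (0.0%) were called by edgeR, 81 (3.67%) had an unadjusted p under 0.05, and DESeq2 called 6. The difference in log2 fold change between 2 weeks and 72 h was 0.99 for CKAP5 (adjusted p = 0.742), 1.10 for CHD4 (adjusted p = 0.699) and 0.75 for SFPQ (adjusted p = 0.812, edgeR), so smaller fold changes at 2 weeks were not shown for single genes. List medians differed in the same descriptive sense: the large and small ribosomal subunit lists had medians of 1.23 over 35 genes and 1.25 over 26 genes at 72 h, and 0.04 and 0.35 at 2 weeks. The medians of splicing factors were -0.81 over 38 genes at 72 h and -0.30 over 34 genes at 2 weeks. Those of the proteasome list were 0.36 at both times, over 20 and 15 genes. Those of the endoplasmic reticulum list were 0.58 over 16 genes and 0.63 over 10 genes. Each list median is over the genes tested at its own time, so the gene sets were not matched. BiP itself had log2 fold changes of -0.88 (SE 0.50) at 72 h and 0.68 (SE 0.37) at 2 weeks, a difference of 1.41 that did not pass (HSPA5, adjusted p = 0.584, edgeR).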

How the data were processed

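Ribosome footprints of 6 libraries were analysed as the whole-number estimated counts per gene that the authors deposited for 43582 genes. HISAT2, StringTie and hg38 are named, with no role or version, per the submitters' processing notes, and the program that counted reads and its annotation are not given in the sources used here. Gene IDs were matched to GENCODE 29 (99.4% without version, 93.5% with it), which gave the positions, classes and coding lengths. Genes were filtered with filterByExpr and tested with edgeR 4.0.16 in R 4.3.3 (quasi-likelihood test, TMM factors, Benjamini-Hochberg adjustment over all genes tested, threshold 0.05). The script was tested on simulated data. The difference between time points was the interaction in a fit of 12 libraries. Shares of counts were compared by exact permutation over libraries. The text names called genes, then protein-coding genes in order of unadjusted p with a mean of at least 20 counts and no overlap between groups, up to 10 in each direction, and up to 3 tested members of each list and noncoding class with the highest counts, and other genes are marked where they appear. Members and all 27 gene lists were chosen with earlier results of these data known. Alternatives were other scalings, DESeq2 1.42.0, other filters, a block, a shared fit, near-equal copies kept once and each library left out. RNA libraries of 2 weeks were not used here, because their labels disagree on the treatment. Floors cover counting error only, since reads carried no stated molecular identifiers.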

Additional observations from a re-analysis of the deposited data

Results flagged for a closer look

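The response of 2 genes to actD differed between 2 weeks and 72 h by the test of the difference itself. MOB1A, a coactivator of the Hippo pathway kinases, had 13, 19 and 14 counts with actD and 7, 15 and 15 with DMSO at 2 weeks, and 102, 40 and 189 against 0, 0 and 0 at 72 h. The difference of its log2 fold changes was -8.58 (SE 0.98, edgeR adjusted p = 0.0143). ITM2C, a membrane protein gene, had 9, 8 and 6 counts against 5, 9 and 3 at 2 weeks, and 35, 21 and 31 against 0, 0 and 0 at 72 h, a difference of -6.70 (SE 0.93, edgeR adjusted p = 0.0431). Both genes are listed at 0 in all 3 DMSO libraries of 72 h, so these fitted differences depend on the prior count and are no bound. An exact 0 beside such counts can be a failed estimate. MOB1A was called in 10 of 18 alternatives and ITM2C in 5 of 18, with adjusted p up to 0.223 and 0.318 (edgeR or DESeq2).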

How the results depend on the processing

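At 2 weeks 0 genes were called in each alternative run but 1: with no filter 11 of 14393 genes were called (4 higher, 7 lower), among them RNU12, AC007952.4, RNVU1-14 and ANKHD1 with counts in 1 or 2 libraries only. For the difference from 72 h the 2 calls became 1 with library totals, 1 with protein-coding TMM, 1 with a looser filter, 11 with DESeq2, 206 with no filter and 0 to 7 without 1 library. For the difference from 6 h the count of 0 became 6 with DESeq2, 19 with no filter and 0 to 1 without 1 library. With the replicate number as a block 0 genes were called at 2 weeks (192 at an unadjusted p under 0.05, against 137) and 0 in either difference between times. Same-numbered libraries had deviations that correlated at 0.352, -0.0548 and 0.453, and the labels give no shared source, so the numbers were not taken to pair the libraries. The excess of mitochondrial rRNA, 2.12 percentage points, was 4.90 without small nuclear RNA genes and 3.50 with near-equal copies kept once, an alternative chosen after seeing the data.

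Without 1 library, list medians ranged from -0.27 to 0.27 (large ribosomal subunit), 0.15 to 0.62 (proteasome), -0.31 to 0.11 (glycolysis), -0.11 to 0.0742 (chaperones), -0.32 to 0.18 (synthetases), -0.13 to 0.22 (cytoskeleton), -0.42 to -0.19 (chromatin), -0.94 to -0.40 (replication) and -0.41 to -0.30 (splicing). Library totals gave -0.14 for chaperones, -0.41 for chromatin and -0.43 for splicing, and a looser filter gave 0.18 for the endoplasmic reticulum list.

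Each of 95 named genes was tested under 13 to 15 alternatives, and 77 kept their direction in those that tested them and 18 did not, and none was called. Without 1 library their log2 fold changes ranged from -0.36 to 0.26 (ATP5F1B), -0.16 to 0.68 (COL1A1), -0.0281 to 0.54 (COL3A1), -0.14 to 0.26 (EIF3A), -0.35 to 0.10 (FP671120.3), -0.23 to 0.16 (IGF2), -0.0277 to 0.40 (KRT8), -0.52 to 0.00056 (LAMB1), -2.04 to 1.43 (MIR148A), -0.0494 to 1.08 (MIR6087), -0.71 to 0.89 (NPM1), -0.16 to 0.29 (RMRP), -0.57 to 0.46 (RPLP2), -0.36 to 0.85 (RPPH1), -0.24 to 1.73 (SCARNA1), -0.48 to 0.0425 (SMARCA4), -0.0550 to 0.72 (SNORA61) and -1.19 to 0.0618 (SNORA9). Library totals gave -0.0475 for EIF3A, -0.0497 for NPM1 and -0.14 for RMRP. Protein-coding TMM gave -0.0177 for NPM1 and -0.0034 for RMRP. NPM1 was -0.0195 with no filter, and with copies kept once NPM1 was -0.0164 and RMRP -0.0173. The block gave 0.0129 for IGF2 and -0.0037 for NPM1. The cause was not tested. Tested protein-coding genes had a median of 16.2 counts per library, and the part of depth in the lack of calls was not tested.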
